A study of Bos taurus and Ovis aries and Capra hircus with 27 samples.

Results

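Albumin, haptoglobin and fibrinogen are plasma proteins, and 5 gene models for them were described over heart, liver and kidney of cattle and goat. They were cattle albumin (ENSBTAG00000017121), goat albumin (GOAT_ENSBTAP00000022763), goat haptoglobin (GOAT_ENSP00000348170) and the beta and gamma chains of goat fibrinogen (GOAT_ENSP00000306099 and GOAT_ENSP00000384552). These are 5 of the 71943 models listed for cattle, goat and sheep. The models were chosen by name, and selected on their high liver level in these same tables, so that every liver value of them below is a description and was not tested. The tables do not pair identifiers with names, and the names used here are those given with the selection.

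The study sequenced messenger RNA of heart, liver and kidney in 27 libraries, 3 for each combination of species and tissue. Cattle and goats were labelled as indigenous, with an age of about 4 years for cattle and about 3 years for goats and sheep, and no group had received a treatment. According to the study's methods, the animals were unrelated adult females, from each of which several tissues were taken. No sheep model was among the 5, and sheep was not analysed here.

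Hepatocytes of the liver make albumin, haptoglobin and fibrinogen and secrete them into the blood. Albumin is the main protein of plasma and carries fatty acids and other small molecules. Haptoglobin binds haemoglobin that has left red blood cells, and rises in blood during the acute-phase response, as fibrinogen does. Fibrinogen is built from alpha, beta and gamma chains and is cleaved by thrombin to form the fibrin of a clot.

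Values are FPKM, fragments scaled to transcript length and to the mapped fragments of the library, so levels of different models can be set side by side per length. Summed FPKM lay between 472908 and 904285 in the 18 cattle and goat libraries, and liver replicates were close to each other, with Pearson's r across genes of 0.923 to 0.971. Without counts in the tables, depth was unknown and no counting interval is given. An exact 0 in such a table can be a failed estimate. Over all 27 libraries, 9 genes of at least 1000 FPKM in both other replicates of a group were listed at 0, in 7 libraries. The labelled tissues could not be checked against defining markers, since the identifiers carried no names.

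In cattle, albumin was listed at 0 FPKM in liver 1 and reached 14249 and 17199 FPKM in liver 2 and 3. It was the most abundant model of liver 2 and ranked 2 in liver 3, and it took 3.01% of the summed FPKM in both. The heart libraries had 165, 244 and 364 FPKM, and the kidney libraries 117, 37.7 and 19.0 FPKM. Liver 2 and 3 thus lay above every heart and kidney library, liver 1 lay below all of them, and the heart libraries did not overlap with the kidney libraries. The share of all genes without such overlap was not counted, here or for the models below. The median of liver was 58.3-fold that of heart and 378-fold that of kidney. This median of 14249 FPKM depended on which library was left out, with 7125 FPKM without liver 3, 8599 without liver 2 and 15724 without liver 1.

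Goat albumin (scaffold 1281 of CHIR_1.0, 2603767 to 2618724, minus strand, 594 residues) was likewise listed at 0 in liver 1, beside 11676 and 9247 FPKM in liver 2 and 3. It ranked 3 in both of these libraries. Kidney had 63.1, 76.2 and 9.68 FPKM, and heart 0.0368, 0.0668 and 0.0335 FPKM. Kidney lay above heart without overlap, and its median was 147-fold lower than that of liver. Without liver 2 the liver median of 9247 FPKM fell to 4623 FPKM, and without liver 3 to 5838 FPKM.

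Goat haptoglobin (scaffold 1344, 1057172 to 1061276, minus strand, 400 residues) had 17.3 FPKM in liver 1, against 28350 and 27017 FPKM in liver 2 and 3. It was the most abundant model of liver 2 and liver 3, with 4.88% and 4.36% of the summed FPKM, but ranked 3109 in liver 1. The highest liver library was 1641-fold above the lowest, and the liver median of 27017 FPKM became 13517 FPKM without liver 2 and 14184 FPKM without liver 3. Heart had 0.240, 16.2 and 10.6 FPKM, and kidney 14.2, 29.7 and 54.5 FPKM. The library numbered 1 was the lowest of its tissue in heart, in liver and in kidney alike. Heart and kidney overlapped in level, and liver 1 lay within the kidney range and above every heart library.

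Goat fibrinogen beta (scaffold 806, 770535 to 777844, minus strand, 489 residues) was high in all liver libraries, with 6140, 11245 and 6868 FPKM and ranks of 7, 4 and 7. Its coefficient of variation over them was 34.2%. Kidney had 8.14, 6.43 and 2.19 FPKM. In heart it was listed at 0 in libraries 1 and 3, with 0.214 FPKM in heart 2. None of the 3 tissues overlapped with another.

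Goat fibrinogen gamma (scaffold 806, 723357 to 730508, plus strand, 442 residues) had 6720, 16272 and 15546 FPKM in liver, with ranks of 4, 2 and 2 and a coefficient of variation of 41.4%. Kidney had 11.2, 10.4 and 5.0 FPKM. Heart 1 was listed at 0, and heart 2 and 3 had 0.475 and 0.779 FPKM. Again the 3 tissues did not overlap. The liver median was 1495-fold that of kidney for gamma and 1068-fold for beta. In bulk tissue, fewer cells of a type and less RNA per cell cannot be told apart in such a difference.

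**Figure D1:**
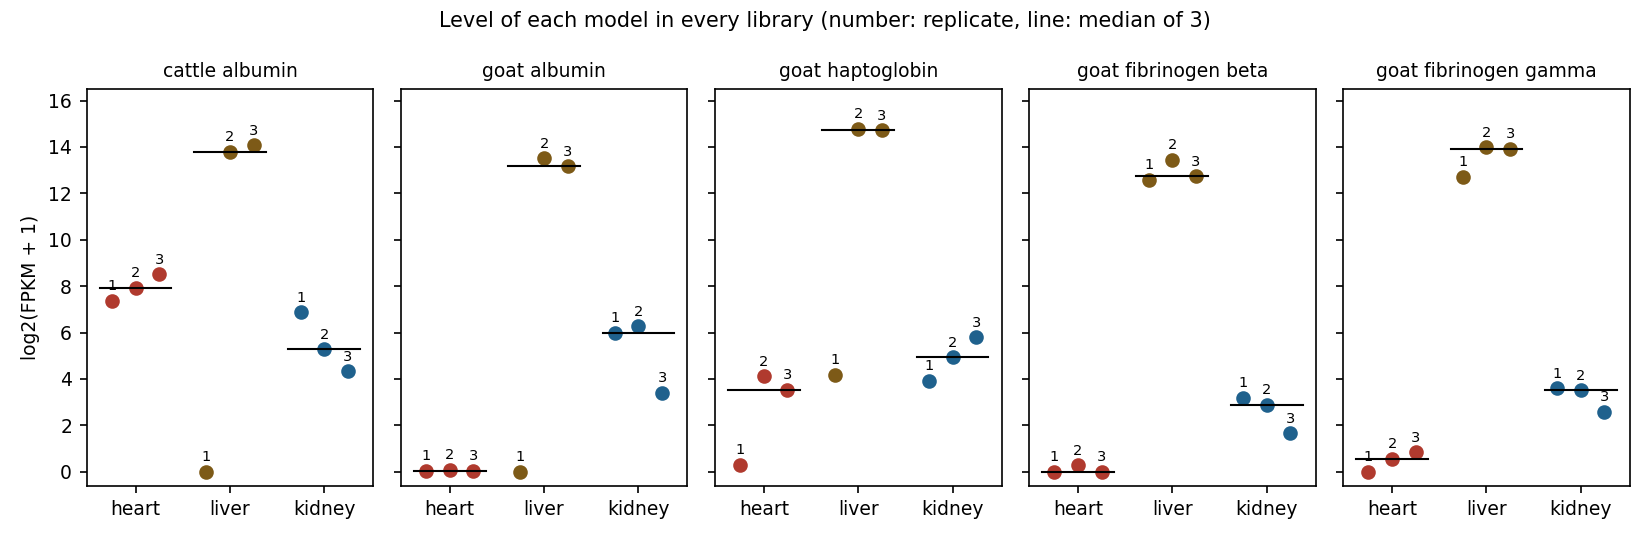
Levels of the 5 models as log2(FPKM + 1) in each library of heart, liver and kidney, with the replicate number above each point and the median of the 3 libraries as a line. Albumin of both species was listed at 0 in liver 1, goat haptoglobin fell to 17.3 FPKM there, and both fibrinogen chains were at 6140 FPKM or more in every liver library.

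The order of the goat models followed the same sequence in liver 2 and liver 3, with haptoglobin first, then fibrinogen gamma, albumin and fibrinogen beta. Albumin and beta lay close in liver 2 (11676 and 11245 FPKM) and overlapped over these 2 libraries, whereas haptoglobin and gamma were separate from each other and from the rest. In liver 1 gamma and beta were first and second of the 4. Together the 4 goat models took 2.24%, 11.6% and 9.47% of the summed FPKM of liver 1, 2 and 3. In kidney they took 0.0149%, 0.0194% and 0.0121%. There albumin was the highest of the 4 in kidney 1 and 2, and haptoglobin in kidney 3, while gamma lay above beta in each kidney library.

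Most abundant liver models did not share the low values of liver 1. In goat, 63 models had at least 1000 FPKM in both liver 2 and 3, and their median difference between liver 1 and the mean of liver 2 and 3 was −0.05 on the log2(FPKM + 1) scale. Albumin was the lowest of the 63 (−13.34) and haptoglobin the second lowest (−10.56), whereas gamma was the twelfth (order 12, −1.24). At least 16-fold lower in liver 1 were 6 of the 63 models, and albumin was the single one listed at 0. After albumin and haptoglobin came GOAT_ENSP00000364092 (−8.21), GOAT_ENSP00000257549 (−6.60) and GOAT_ENSP00000368699 (−5.31). In cattle, 55 models met the same level, with a median difference of 0.28. Albumin was the lowest of these (−13.93), 4 of the 55 were at least 16-fold lower, and again albumin alone was listed at 0. The second lowest was ENSBTAG00000043553 (−7.78). The most abundant of the other low cattle models, ENSBTAG00000006354, had 463, 11731 and 10189 FPKM in liver 1, 2 and 3. In sheep, liver 1 likewise held 1 model at 0 that had at least 1000 FPKM in liver 2 and 3. These were all 3 such liver zeros in the 27 libraries, each in a library numbered 1. Outside liver, such zeros were listed in cattle heart 3 (3 genes) and in sheep heart 1, heart 3 and kidney 1 (1 gene each), so not only in libraries numbered 1. The part of failed estimates in the low values of liver 1 was not tested. What libraries of the same number share across species was not tested either.

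**Figure D2:**
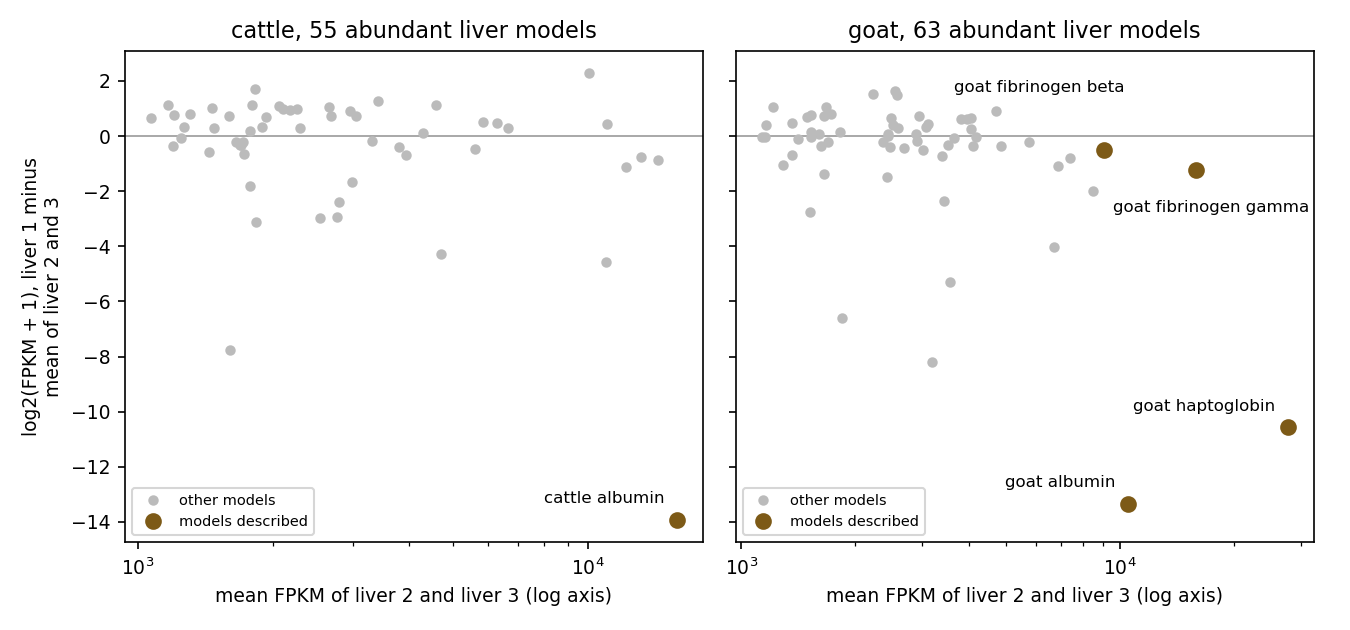
Difference between liver 1 and the mean of liver 2 and 3 on the log2(FPKM + 1) scale, against the mean FPKM of liver 2 and 3 on a log axis, for the 55 cattle and 63 goat models of at least 1000 FPKM in liver 2 and 3. Albumin of cattle (−13.93) and goat (−13.34) and goat haptoglobin (−10.56) are the lowest points, followed by 1 other cattle model at −7.78 and 1 other goat model at −8.21, and fibrinogen gamma is at −1.24.

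The ratio of the fibrinogen chains was compared within libraries. Beta over gamma was 0.914, 0.691 and 0.442 in liver 1, 2 and 3, a mean of 0.682 ± 0.236 (SD, n = 3). In kidney it was 0.729, 0.618 and 0.438, a mean of 0.595 ± 0.147. The ratios of liver and kidney overlapped, although the medians of liver were 1068-fold and 1495-fold those of kidney, and in both tissues library 1 had the highest and library 3 the lowest ratio. With 3 libraries no test was made of this order. Haptoglobin over albumin was 2.43 and 2.92 in liver 2 and 3, and 0.225, 0.389 and 5.63 in kidney, so that the kidney libraries lay on both sides of the liver ratio. Gamma over albumin was 1.39 and 1.68 in liver 2 and 3 but 0.177, 0.136 and 0.517 in kidney, all lower than in liver.

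Between the 2 fibrinogen models lies 1 further model with a listed position, GOAT_ENSP00000306361 (scaffold 806, 745817 to 751470, plus strand, 781 residues). It starts 15308 bases beyond gamma and ends 19064 bases before beta. Its name is not given in the files. Its protein aligned with beta at 42.2% identity over 263 residues and with gamma at 40.1% over 242 residues, while beta and gamma shared 33.8% over 399 residues. The model had 3258, 6251 and 7490 FPKM in liver, 5.14, 4.27 and 1.21 FPKM in kidney, and at most 0.0225 FPKM in heart. Liver exceeded heart by 12.37 ± 0.41 (SE) on the log2(FPKM + 1) scale (limma adjusted p = 1.68e-08) and kidney by 10.33 ± 0.41 (limma adjusted p = 1.05e-07). This model was not among those selected on liver level, although it was looked up for its place. Relative to gamma it reached 0.485, 0.384 and 0.482 in liver, beside kidney ratios of 0.460, 0.411 and 0.242.

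**Figure D3:**
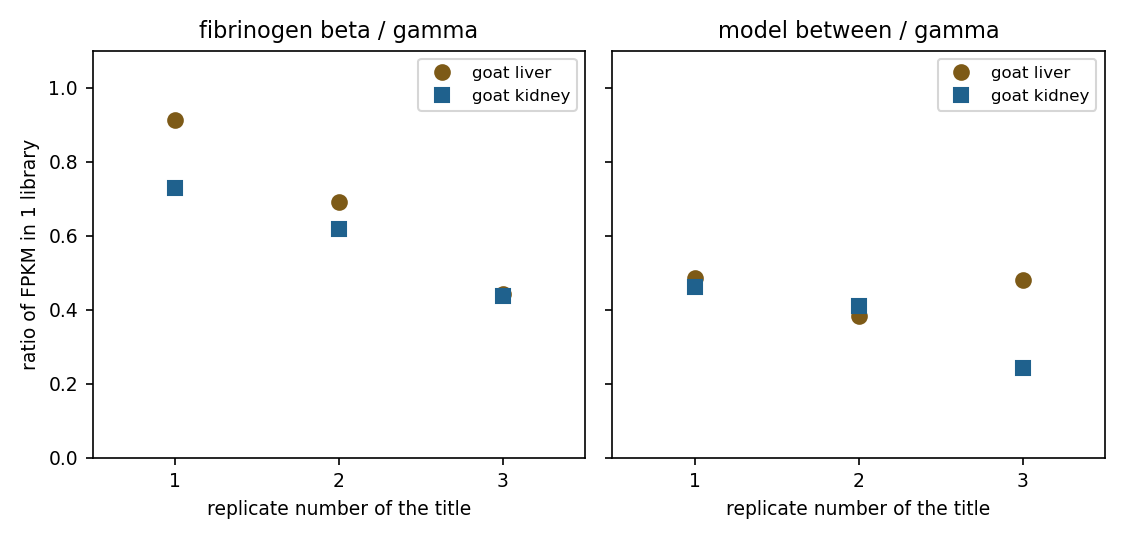
Ratio of fibrinogen beta to gamma (left) and of the model between them to gamma (right) within each goat liver and kidney library, by replicate number. Beta over gamma was highest in library 1 (0.914 in liver and 0.729 in kidney) and lowest in library 3 (0.442 and 0.438) of both tissues.

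The outer neighbours on this scaffold were far lower. GOAT_ENSBTAP00000029840, 15222 bases beyond beta, had 14.4, 16.4 and 24.5 FPKM in liver and differed from heart by −0.18 (limma adjusted p = 0.559). It was lower in liver than in kidney by −0.63 (limma adjusted p = 0.0358), near the median of −0.69 over all goat genes tested. Of these 13634 genes, 7035 were lower in liver than in kidney. GOAT_ENSBTAP00000046443, 181321 bases on the other side of gamma, had 8.83, 17.2 and 16.3 FPKM in liver, was listed at 0 in heart and reached at most 0.0998 FPKM in kidney. It met the level for testing only through its liver libraries, so no test of it is given. Next to haptoglobin, GOAT_ENSBTAP00000026495 had 9.17, 22.3 and 38.5 FPKM in liver, above heart by 1.68 (limma adjusted p = 0.0101) but not detectably above kidney (0.58, limma adjusted p = 0.268). Nearer on the other side, 3581 bases away, GOAT_ENSBTAP00000008329 had 5.69, 5.76 and 35.0 FPKM in liver. It differed detectably neither from heart (0.59, limma adjusted p = 0.471) nor from kidney (0.18, limma adjusted p = 0.813). Beside albumin, goat_GLEAN_10015549 was listed at 0 in every liver library and did not reach the level for testing. Of the 7 neighbours of the goat models, 4 met that level on heart and kidney libraries alone, and 1 of these, the model between the fibrinogen chains, was higher in liver than in both other tissues. Of all 13634 goat genes tested, 19.6% were higher in liver than in heart, 13.4% were higher in liver than in kidney and 9.59% were higher than in both. Over the 12993 goat genes that met the level on heart and kidney libraries alone, 6.22% were higher in liver than in both.

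Models with related protein sequence were examined for the same tissue pattern. They were found by BLASTP, after the values were seen, as models that aligned with at least 40% of one of the 4 goat proteins at an E value of at most 1e-10. Only the 18216 of 22131 goat models with a listed position were searched. Among those that aligned over this length, no other model reached 90% identity with any of the 4. Copies among the models without a position, or shorter fragments, could not be seen. Albumin had 3 relatives. GOAT_ENSP00000421725 (24.4% identity) had 4022, 4200 and 4120 FPKM in the liver libraries, and exceeded heart by 11.95 (limma adjusted p = 2.41e-08) and kidney by 9.96 (limma adjusted p = 1.56e-07). GOAT_ENSP00000226355 (33.3% identity, same scaffold as albumin) had 99.1, 55.5 and 59.2 FPKM in liver, was listed at 0 in heart and reached at most 0.315 FPKM in kidney. It too met the level for testing only through liver and is given without a test. Neither was low in liver 1, where albumin was listed at 0. The model next to albumin, GOAT_ENSBTAP00000022772 (38.9% identity), was at most 0.61 FPKM in liver and was not tested.

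The fibrinogen chains had 19 relatives, of which 15 passed the level for testing, 2 of them only through liver. Of the other 13, 3 were higher in liver than in both other tissues, against 6.22% of goat genes that met the level in the same way. The median difference of these 13 was −0.47 for liver minus heart and −1.82 for liver minus kidney, beside −0.14 and −0.75 over those genes. After the model between beta and gamma, GOAT_ENSP00000381131 was the next in liver, at 1084, 801 and 678 FPKM. Haptoglobin had 49 relatives, of which 14 passed the level for testing, 5 of them only through liver. Of the other 9, 6 were higher in liver than in both other tissues, with medians of 3.33 against heart and 3.72 against kidney. The other relatives did not reach the level and were not tested, and the relatives of a family share sequence.

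Heart against kidney was the contrast that had not been used to choose the models, and it asked whether their low levels outside liver differed. Both fibrinogen chains were higher in kidney than in heart. The difference of heart minus kidney was −2.49 ± 0.39 (SE) on the log2(FPKM + 1) scale for beta (95% interval −3.36 to −1.62, limma adjusted p = 0.000433) and −2.77 ± 0.41 for gamma (−3.69 to −1.85, limma adjusted p = 0.000325). Higher in kidney than in heart were 45.3% of all goat genes tested, so the 2 calls among the 4 goat models are near that background. The median over all goat genes was −0.55, and both chains lay beyond it. The model between them gave −2.04 ± 0.41 (limma adjusted p = 0.00201). The paper states that the goat heart samples are duplicates of samples held under other records. In every goat contrast with heart, a difference in their preparation could not be told apart from tissue.

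For albumin the outcome rested on liver 1. Goat albumin had a difference of −5.17 ± 2.99 (SE) with all 9 goat libraries (95% interval −11.91 to 1.58, limma adjusted p = 0.159). The liver zero widened the spread that the 3 tissues share in this fit, since without liver 1 the SE was 0.65 and the adjusted p of limma 0.00022. With heart and kidney libraries only, goat albumin was −5.17 ± 0.74 (limma adjusted p = 0.00143), in a fit that called 47.2% of all goat genes higher in kidney than in heart. Cattle albumin went the other way, with 2.45 ± 2.99 over 9 libraries (95% interval −4.23 to 9.12, limma adjusted p = 0.480). With heart and kidney libraries only it was 2.45 ± 0.63 (0.94 to 3.95, limma adjusted p = 0.00943). Higher in heart than in kidney were 19.5% of all cattle genes tested in the fit on 9 libraries and 21.7% in the fit on heart and kidney. Goat haptoglobin was higher in kidney in each same-numbered pair of libraries, with heart minus kidney at −3.62, −0.83 and −2.26 for numbers 1, 2 and 3. It was not called in the fits without pairing, with −2.24 ± 2.47 (−7.81 to 3.34, limma adjusted p = 0.454) and −2.24 ± 1.05 (−4.79 to 0.32, limma adjusted p = 0.105). With the replicate number as a block in heart and kidney libraries only, it was −2.24 ± 0.56 (−3.74 to −0.73, limma adjusted p = 0.0222), in a fit that called 50.1% of all goat genes higher in kidney than in heart.

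**Figure D4:**
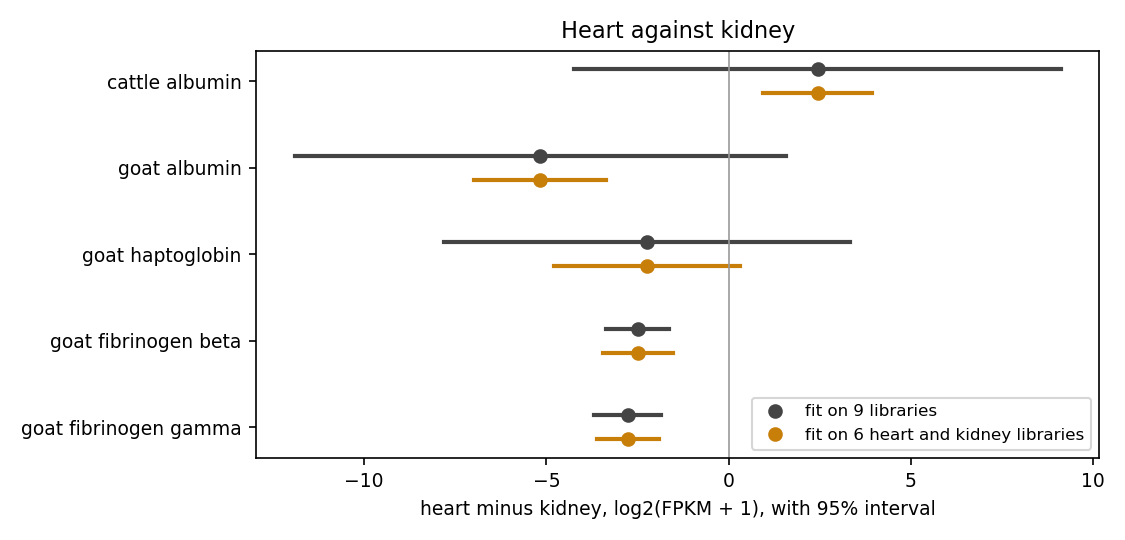
Difference of heart minus kidney on the log2(FPKM + 1) scale for the 5 models, as points with 95% intervals, from the limma fit on all 9 libraries of the species and from the fit on the 6 heart and kidney libraries. The fibrinogen chains lie below 0 in both fits, the intervals of goat albumin (below 0) and cattle albumin (above 0) leave out 0 in the fit on 6 libraries but not in the fit on 9, and that of haptoglobin holds 0 in both of these fits.

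The albumin level of cattle heart was set beside that of other liver models. In cattle, 33 models had at least 1000 FPKM in liver 2 and 3 and a mean there at least 100-fold that of kidney, and heart values had no part in choosing them. In heart 1, 2 and 3 the 32 models other than albumin lay at a median of 1.37%, 1.90% and 2.89% of that liver mean, and albumin at 1.05%, 1.55% and 2.31%. The quartiles ran from 1.21% to 1.63% in heart 1, 1.66% to 2.59% in heart 2 and 2.31% to 3.49% in heart 3. The whole range of the 32 models was wider, from 0.846% to 6.95% in heart 1, 0.837% to 18.8% in heart 2 and 1.06% to 18.5% in heart 3. Albumin and the median of the others were both highest in heart 3 and lowest in heart 1, and albumin was order 28 of the 33 from the highest. Whether liver RNA in the heart libraries had a part in the albumin difference was not tested.

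In goat kidney the same comparison was made over models at least 100-fold lower in heart than in liver. Of these 32 models, the 31 other than albumin lay at a median of 0.162%, 0.146% and 0.0325% of the liver mean in kidney 1, 2 and 3. Their whole range was 0.0513% to 5.08% in kidney 1, 0% to 9.91% in kidney 2 and 0% to 30.0% in kidney 3. Albumin was at 0.603%, 0.729% and 0.0925%, above the median in each library and order 8 of the 32 over their mean. Over their mean, haptoglobin, beta and gamma were order 19, 26 and 27 of the 32, below the median of 0.123%. They are themselves among the models that form that median. Among 31 models of at least 500 FPKM in every goat liver library and under 1 FPKM in every heart library, 28 had their lowest kidney value in kidney 3, which was also the lowest for albumin, beta and gamma but the highest for haptoglobin. The part of liver RNA in these kidney values was not tested.

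The genes whose pattern was most like each model are given as a description, by Pearson's r of log2(FPKM + 1) over the 9 libraries of the species, which share their tissues and depth. For fibrinogen beta they were goat_GLEAN_10005877 (r = 0.999), GOAT_ENSP00000376795 (0.999) and the model between the chains (0.998), and 500 genes exceeded 0.95. For gamma they were beta, the model between and GOAT_ENSP00000376795, each at 0.998, and 474 genes exceeded 0.95. Any gene that is high in all liver libraries and low elsewhere comes close to these patterns.

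Haptoglobin and albumin had fewer such genes over 9 libraries. Without liver 1, 433 genes exceeded 0.95 for haptoglobin, 188 for goat albumin and 411 for cattle albumin, beside 598 for beta and 595 for gamma. Over all 9 libraries, liver 1 included, the most similar genes for haptoglobin were GOAT_ENSP00000263657 (r = 0.972), GOAT_ENSP00000356832 (0.971) and goat_GLEAN_10005563 (0.970), and 9 genes exceeded 0.95. GOAT_ENSP00000356832 had 22.8, 156 and 123 FPKM in liver. For goat albumin over these 9 libraries they were GOAT_ENSBTAP00000024186 (0.968), GOAT_ENSBTAP00000032103 (0.962) and GOAT_ENSP00000223073 (0.953), the 3 genes above 0.95. For cattle albumin over the 9 cattle libraries they were ENSBTAG00000010507 (0.945), ENSBTAG00000001740 (0.906) and ENSBTAG00000044106 (0.899). A high r did not mean a high level. ENSBTAG00000010507 had 0.0939, 2.77 and 3.40 FPKM in cattle liver, and GOAT_ENSBTAP00000024186 had 4.34, 9.31 and 9.01 FPKM in goat liver.

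Among the members themselves, beta and gamma had an r of 0.998 over the 9 goat libraries, with or without liver 1. Albumin and haptoglobin had 0.912, and 0.922 without liver 1. The r of albumin with beta rose from 0.659 to 0.968 when liver 1 was left out, and albumin with gamma from 0.685 to 0.969. Haptoglobin with gamma went from 0.80 to 0.975, and haptoglobin with beta from 0.772 to 0.966. The 4 goat models were selected on their liver level, so a high r over libraries of mixed tissues follows from that choice. Within kidney their patterns differed, with haptoglobin highest in kidney 3 (54.5 FPKM), where albumin, beta and gamma were lowest.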

How the data were processed

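Messenger RNA of heart, liver and kidney was measured in 27 libraries, grouped by their titles. Strand-specific libraries (dUTP) were made, per the labels. Reads were mapped, as the study's methods state, with TopHat to UMD3.1 (cattle) or CHIR_1.0 (goat) and quantified with Cufflinks (2.2.1 in the submitters' processing notes). The authors deposited log2 values, log2(FPKM + 1), 1 table per species, normalized separately. Raising 2 to each value and subtracting 1 gave FPKM. A deposited file of goat proteins gave positions for 18216 of 22131 goat models (82.3%). The goat heart columns carry other names than their labels and were matched by tissue and number to the titles. The paper states that the goat heart samples are duplicates of samples held under other records. Whether they were prepared or run apart from goat liver and kidney was not tested. Any such difference would coincide with goat heart and could not be told apart from tissue. No column remained unmatched.

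Tissues were compared within a species by limma 3.58.1 under R 4.3.3. Its model used the deposited log2 values of all 9 libraries, a mean per tissue and eBayes with a trend. P-values were adjusted by Benjamini-Hochberg (threshold 0.05) over all genes above 0.5 FPKM in at least 3 libraries (14041 in cattle, 13634 in goat). The pseudocount of 1 understates the change of low genes. Proteins were aligned with BLASTP (2.17.0). Depth is unknown, since FPKM keeps no counts.

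The members and lists were chosen with earlier results of these data known. Genes were named by rule: the 5 models, the nearest model on each side of the goat ones, and the 3 genes with the most similar pattern. Sequence relatives and the liver models compared in heart and kidney were chosen after their values were seen. Lists of plasma proteins, of uptake and regulator genes and of cell type markers, and a promoter search, were not analysed here, because no table used here pairs these identifiers with names, protein names or promoters. For the same reason no sequences are shown. Same-numbered goat libraries deviated together from their tissue means (9 correlations of 0.146 to 0.472). The study's methods state that several tissues were taken from each animal. Whether goat libraries of equal number came from the same animal was not tested. Alternatives were another pseudocount, 2 filters, 2 scalings, a fit without trend, the replicate number as a block, heart and kidney libraries only, without and with the block (both chosen after seeing the data), and leaving out each library.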

Additional observations from a re-analysis of the deposited data

Results flagged for a closer look

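The heart minus kidney values of albumin had opposite signs in cattle and goat. The difference of heart minus kidney was 2.45 on the log2(FPKM + 1) scale in cattle and −5.17 in goat. Neither passed the threshold over 9 libraries (limma adjusted p = 0.480 and 0.159), and both did with heart and kidney libraries only, a fit chosen after seeing the data (limma adjusted p = 0.00943 and 0.00143), and without liver 1. Every cattle heart library (165, 244 and 364 FPKM) lay above every cattle kidney library (117, 37.7 and 19.0 FPKM), and every goat kidney library (63.1, 76.2 and 9.68 FPKM) lay above every goat heart library (0.0368, 0.0668 and 0.0335 FPKM). The share of all genes without such overlap was not counted. With heart and kidney libraries only, 21.7% of all cattle genes were called higher in heart and 47.2% of all goat genes higher in kidney. The difference between the species was not tested, since the tables were normalized separately. A difference in preparation of the goat heart samples could not be told apart from tissue. In cattle heart, the 32 other liver models lay at medians of 1.37%, 1.90% and 2.89% of their liver level, in the same order of libraries as albumin.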

How the results depend on the processing

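For heart minus kidney, every alternative that could be run kept the direction of all 5 models, and the calls of beta and gamma did not change. The albumin calls changed in both species. With heart and kidney libraries only, cattle albumin (2.45, limma adjusted p = 0.00943) and goat albumin (−5.17, limma adjusted p = 0.00143) passed the threshold. With the replicate block in these libraries, chosen after seeing the data, the adjusted p was 0.0158 for cattle albumin (2.45) and 0.0028 for goat albumin (−5.17), and haptoglobin (−2.24) passed too, with 0.0222. The albumin models also passed without liver replicate 1 (limma adjusted p = 0.00399 and 0.00022), the library in which albumin was listed at 0. Leaving out each library in turn gave 1.86 to 3.14 for cattle albumin and −6.07 to −4.64 for goat albumin, −2.95 to −2.19 for beta, −3.09 to −2.54 for gamma and −2.96 to −1.06 for haptoglobin. Over all alternatives the limma adjusted p ranged from 6.49e-05 to 0.00335 for beta and from 0.000127 to 0.00421 for gamma, from 0.0222 to 0.775 for haptoglobin, from 0.00022 to 0.293 for goat albumin and from 0.00399 to 0.657 for cattle albumin. With the pseudocount of 0.1, beta was −5.09 and gamma −4.51, as a smaller pseudocount widens differences of low genes. Median ratio scaling moved the median over all goat genes from −0.55 to −0.04, with beta at −2.09 and gamma at −2.31. The study's filter tested neither goat albumin nor the fibrinogen chains.

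With the replicate block over 9 libraries, the limma adjusted p was 0.453 for cattle albumin, 0.133 for goat albumin, 0.259 for haptoglobin, 0.000251 for beta and 0.000411 for gamma, with unchanged differences of 2.45, −5.17, −2.24, −2.49 and −2.77, so the block changed no call there. In cattle the same-numbered libraries did not deviate together (9 correlations of −0.159 to 0.159).

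Leaving out liver 2 or liver 3 lowered the liver median of both albumin models and of haptoglobin by over 1.5 times, as given above, whereas the 2 scalings and, for beta and gamma, each library left out moved it by less. The range between liver replicates on the log2(FPKM + 1) scale fell from 14.07 to 0.27 for cattle albumin, from 13.51 to 0.34 for goat albumin, from 10.60 to 0.07 for haptoglobin and from 1.28 to 0.07 for gamma without liver replicate 1, and from 0.87 to 0.16 for beta without liver replicate 2. The same alternatives for the plasma protein list and for the uptake and regulator list were not run, since identifiers could not be matched to names. Depth is unknown, so no limit can be given for a value listed at 0 in heart.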
